A study of Meloidogyne incognita with 6 samples.

Results

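The rows described here are the moderately shifting members of the most abundant transcripts in Meloidogyne incognita, a root-knot nematode that parasitises plants, at its second juvenile stage (J2). They were chosen from the measured values themselves. Of 20365 rows, the 18433 whose ID has no final lower-case letter were ranked by mean level over the 6 libraries, and the 300 highest were kept. Members are those whose middle and early stage means differ by at least 1.5-fold and by less than 4-fold, with 1 added to each mean, and whose 3 early values do not overlap the 3 middle values. This gave 91 members, of which 66 had the higher mean in the middle stage and are called rises, and 25 had the lower mean there and are called falls. The names rises and falls state only the direction that chose the rows.

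The groups are an early and a middle stage of wild type J2, with 3 libraries each. Total RNA was taken with Trizol, and libraries were made by a standard Illumina procedure. The labels give no treatment, age in days or definition of the stages, and they do not say that the replicates came from separate cultures, so that any p-value covers the library-to-library spread alone, and this may be technical. Values are FPKM, that is, counts divided by the length of a model and by the counted fragments or reads of a library, a measure per length. Denominators recovered from the steps of the values were 5305983 to 7436406 reads per library.

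J2 of root-knot nematodes hatch in the soil and do not feed until they have entered a root and set up a feeding site near the vascular tissue. Until then they live on stored reserves, chiefly lipid, and move by body-wall muscle under a collagen cuticle. Secretions of their oesophageal glands, among them enzymes that act on plant cell walls, are released through a stylet. In whole animals the most abundant messages are usually those of large tissues and of housekeeping processes such as protein synthesis. The deposited table pairs its IDs with no symbol or product, no annotation was used here, and so no role is given to any row. For the same reason the labelled stage could not be checked against marker genes. Of the rises and of the falls, the pair with the highest mean level is named by ID, and other rows are given by their rank among the 300.

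The members include the leading transcripts of both stages. Minc02311 and Minc03866, both rises, had the highest and second highest mean level of all ranked rows. Of the 10 highest rows by early mean, 3 were rises and 4 were falls. Of the 10 highest by middle mean, 6 were rises and none was a fall, so that the 4 falls among the leading early rows had all left the leading 10. Among the 50 highest by early mean there were 9 rises and 9 falls, and among the 50 highest by middle mean 20 rises and 2 falls. The direction of these shifts follows from the rule, which used the same stage means. The levels are shares of a library, and in whole animals fewer cells of a type and less RNA per cell cannot be told apart.

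**Figure D1:**
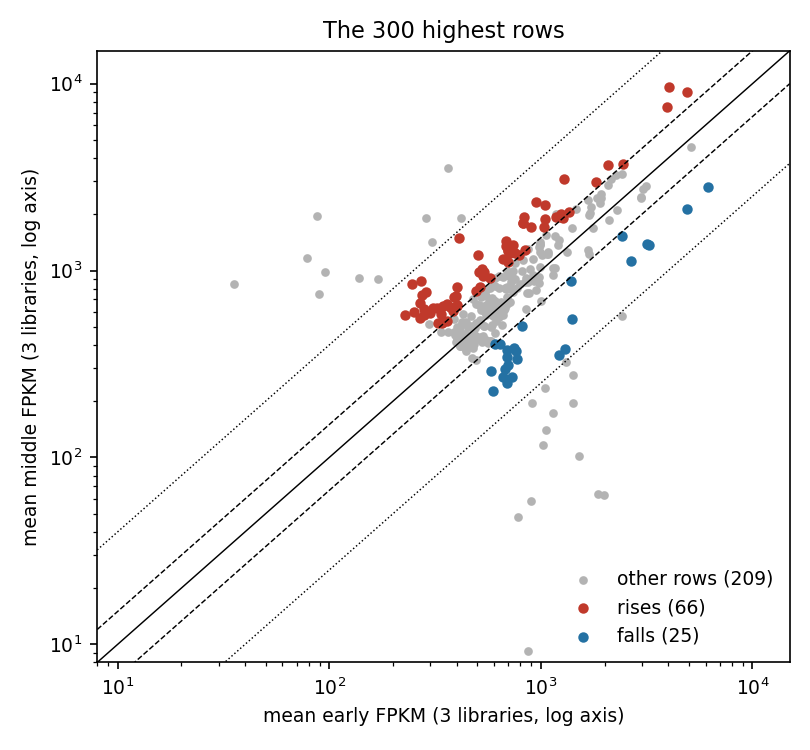
Mean early against mean middle FPKM of the 300 highest rows, both on log axes, with the 66 rises in red, the 25 falls in blue and the 209 other rows in grey. The solid line marks equal means, the dashed lines a ratio of 1.5 and the dotted lines a ratio of 4 in either direction, and the members fill the strips between dashed and dotted lines.

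Minc02311, a gene model of 657 bases, stood at 5645, 3317 and 5691 FPKM in early replicates 1 to 3 and at 9501, 7434 and 9976 FPKM in middle replicates 1 to 3. Early replicate 2 was far below the other early libraries, and middle replicate 2 was the lowest middle library, still 1742 FPKM above the highest early one. Its rank among the 18433 rows was 2, 7 and 2 in the early and 1, 2 and 1 in the middle libraries. The means were 4884 ± 1358 and 8970 ± 1352 FPKM (SD, n = 3), a log2 difference of 0.91 with a standard error of 0.27 on log2(FPKM + 1). Without early replicate 2 this difference was 0.65.

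Minc03866, of 1627 bases, stood at 5165, 2912 and 4047 FPKM in the early libraries and at 9006, 10873 and 8933 FPKM in the middle libraries. Here too early replicate 2 was the lowest, but middle replicate 2 was the highest. It ranked 4, 10 and 5 in the early and 2, 1 and 2 in the middle libraries. The means were 4041 ± 1127 and 9604 ± 1100 FPKM (SD, n = 3), with a log2 difference of 1.28 and a standard error of 0.25. In middle replicate 2 it held 115404 reads, the most of any member in any library.

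Minc08986, of 838 bases, was the highest ranked row in each early library, at 6410, 5662 and 6423 FPKM. In the middle libraries it stood at 2673, 2788 and 2908 FPKM and ranked 16, 14 and 14. The stages lay 2754 FPKM apart at their nearest values, and the spread within each was small beside that gap. The means were 6165 ± 436 and 2790 ± 117 FPKM (SD, n = 3), with a log2 difference of -1.14 and a standard error of 0.16.

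Minc01079, of 777 bases, had early values of 5080, 4538 and 5067 FPKM and middle values of 2001, 2181 and 2256 FPKM. It ranked 5, 3 and 4 in the early and 34, 30 and 25 in the middle libraries. The means were 4895 ± 309 and 2146 ± 131 FPKM (SD, n = 3), with a log2 difference of -1.19 and a standard error of 0.15. Both named falls thus had a narrower spread than both named rises, with coefficients of variation of 7.06% and 6.32% in the early stage against 27.8% and 27.9%.

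**Figure D2:**
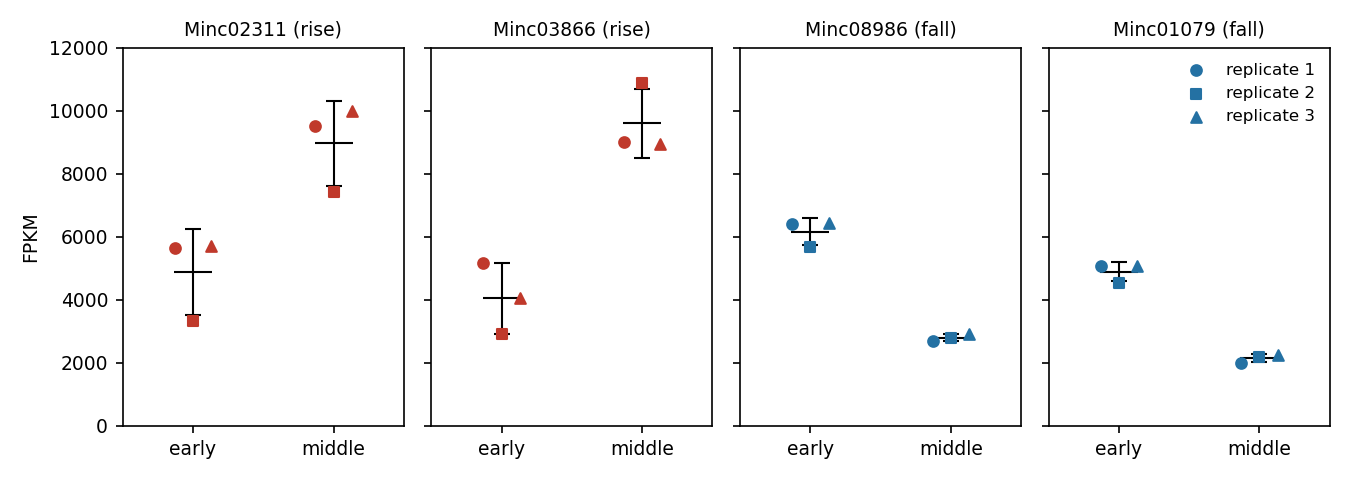
FPKM of the 4 named rows in every library, on a linear axis from 0, with circles, squares and triangles for replicates 1, 2 and 3. Bars give the mean and SD of 3 libraries, and early replicate 2 (square) is the lowest early value in all 4 panels.

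Over the 66 rises the mean level ran from 403 to 6927 FPKM, with a median of 815 FPKM, and over the 25 falls from 409 to 4477 FPKM, with a median of 565 FPKM. The median stage mean of the rises was 534 FPKM for the early and 1062 FPKM for the middle stage. That of the falls was 759 FPKM and 381 FPKM. The ratio of the stage means was mostly small for the rises, with 44 between 1.5 and 2, 19 between 2 and 3 and 3 between 3 and 4. The falls were mostly in the next band, with 7, 16 and 2 rows in these bands.

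The median ratio was 1.84 for the rises and 2.26 for the falls. The widest ratio among the rises, 3.61, was that of the row at rank 93, of 1146 bases. It had 481, 316 and 438 FPKM in the early and 1684, 1507 and 1277 FPKM in the middle libraries. The widest among the falls, 3.47, was that of the row at rank 123, of 548 bases. It had 1351, 933 and 1386 FPKM in the early and 383, 307 and 365 FPKM in the middle libraries. In both rows every middle library was well clear of every early one.

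Rises were more frequent near the top of the ranking. They made up 17 of the 50 highest rows, 15 of the next 50, 13 of the rows at ranks 101 to 200 and 21 of those at ranks 201 to 300. Falls numbered 6, 2, 6 and 11 in the same bands. The same limits on ratio and overlap took in 947 rises and 815 falls among the 13142 rows whose mean reached 1 FPKM, which is 7.21% and 6.20%. The balance among the members depended on scale. When the libraries were brought to a common FPKM sum, the rule gave 55 rises and 27 falls, among them 55 of the 66 and all 25 of the original members. With median-ratio scaling it gave 69 rises and 24 falls.

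The limits are sharp only by definition. The rises nearest to the lower limit had ratios of 1.501 and 1.505, and the rows left out nearest to it had 1.496 and 1.493. The falls nearest to it differed by 1.506 and 1.574-fold, and the rows left out by 1.470 and 1.450-fold. At the upper limit the gap was wider. The highest rises stood at 3.44 and 3.61, and the next rows beyond at 4.55 and 4.64. The highest falls stood at 3.40 and 3.47, and the next beyond at 4.06 and 4.20. Above the limit lay 11 rows in the direction of the rises and 15 in that of the falls. The row at rank 300 had a mean of 403.2 FPKM and that at rank 301 a mean of 401.2 FPKM. A further 2 rows had ratios of 1.69 and 1.75 but overlapping stages, and 181 rows differed by less than 1.5-fold.

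A linear model on stage across these 13142 rows (limma with empirical Bayes and an intensity trend, on log2(FPKM + 1)) passed 63 of the 66 rises and 24 of the 25 falls, at a Benjamini-Hochberg adjusted p under 0.05. Over all tested rows it passed 1225 in the direction of the rises and 1196 in that of the falls, which is 9.32% and 9.10%. At a common FPKM sum these were 1008 and 1534, and with median-ratio scaling 1270 and 1155. Leaving out middle replicate 1 took the 2421 calls to 1362, leaving out early replicate 1 to 1456, and leaving out early replicate 3 to 1503. Non-overlapping stages were found in 18.5% of all tested rows with the higher and in 20.0% with the lower values in middle J2. The rule for members used this contrast, so the counts among them describe the members and test nothing.

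The 4 members that did not pass had wide spreads within a stage beside log2 differences of 0.67 to 0.91 in size. Minc02311 was one of them, with an adjusted p of 0.0574 (limma), between 0.0119 and 0.171 under the 15 alternatives run. Minc03866 had as wide an early spread but a larger log2 difference, 1.28, and passed. The rise at rank 97 had the widest early spread of any rise, with 797, 315 and 866 FPKM in the early and 1049, 955 and 1458 FPKM in the middle libraries. The rise at rank 134 had early values of 566, 689 and 468 FPKM and middle values of 964, 1088 and 698 FPKM. There early replicate 2 and middle replicate 3 were only 1.01-fold apart, the narrowest gap among the rises. The fall at rank 28 had early values of 2679, 2041 and 2536 FPKM and middle values of 1529, 1150 and 1904 FPKM, with a gap of 1.07-fold, the narrowest among the falls.

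Most members were separated by a wider gap. The ratio of the lowest value of the higher stage to the highest value of the lower stage had a median of 1.47 over the rises and 1.66 over the falls. It was at least 1.5 in 31 rises and 16 falls. The widest gap among the rises was 2.84-fold, in the row at rank 200, with 275, 177 and 285 FPKM in the early and 810, 889 and 849 FPKM in the middle libraries. The widest among the falls was 2.55-fold, in the row at rank 111, with 1186, 1316 and 1390 FPKM in the early and 338, 340 and 465 FPKM in the middle libraries.

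At the median count, counting error was small beside the median spread, though not in every row. The recovered reads per member and library ran from 200 to 115404 over the rises, with a median of 2525, and from 295 to 40027 over the falls, with a median of 3600. At the lowest of these counts, counting error alone gives a coefficient of variation of 7.07% and 5.82%, and at the medians 1.99% and 1.67%. Medians of the measured coefficients of variation were larger, at 10.3% in early and 8.98% in middle J2 for the rises. For the falls they were 14.4% and 10.6%. Single rows could lie lower, as did the rise at rank 227, with 1.01% in early J2 at 748 to 1003 reads. The 209 other rows of the 300 had medians of 8.60% and 7.59%. Spread and ratio are tied by the rule, since a row with a wide spread has to change more for its stages not to overlap.

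Within the early stage a single library stood apart in most falls, and less clearly in the rises. Early replicate 2 was the lowest early library in 21 of the 25 falls and in 38 of the 66 rises. In another 18 rises it was the highest. It was the lowest in 48.3% of the other rows of the 300, where early replicate 3 was so in 45.9%, and in 27.5% of all tested rows. On log2(FPKM + 1) its median difference from the mean of the other early libraries was -0.35 in the falls, -0.09 in the rises, -0.04 in the other rows of the 300 and 0.05 in all tested rows. It was at least 30% below their mean in 6 falls and 12 rises, and also in 10.5% of the other rows of the 300 and 8.22% of all tested rows. The low values thus occurred in rows of both directions, and a part played by library preparation or by the animals was not tested.

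For the rises a low early replicate 2 widens the ratio. In the 12 rises with the dip, its value was a median of 0.589 times the mean of the other early libraries and at the lowest 0.379 times. Their median ratio was 2.26 with all libraries and 1.94 without early replicate 2, and 3 of the 12 then had a ratio under 1.5. Over all 66 rises the median ratio was 1.84 with and without this library, and 7 rows had a ratio under 1.5 without it. For the falls a low early replicate 2 narrows the difference. Their median went from 2.26-fold to 2.34-fold without it, and none came under 1.5.

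Within the middle stage, replicate 3 was most often the library nearest to the early values. It was the lowest middle library in 37 of the 66 rises and the highest in 18 of the 25 falls, or 55 of the 91 members (60.4%). Among the 123 other non-overlapping rows of the 300 it was the nearest in 43.9%, and among all 5051 tested rows with non-overlapping stages in 41.4%. Middle replicate 2 was the nearest in 26.4% of the members, but in 40.7% and 37.8% of these wider sets, close to replicate 3. The median difference of middle replicate 3 from the mean of middle replicates 1 and 2 was -0.10 in the rises and 0.17 in the falls on the log2 scale. In the rise at rank 221, of 492 bases, middle replicate 3 stood at 366 FPKM, while middle replicates 1 and 2 had 843 and 1012 FPKM. The early values were 261, 332 and 228 FPKM.

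**Figure D3:**
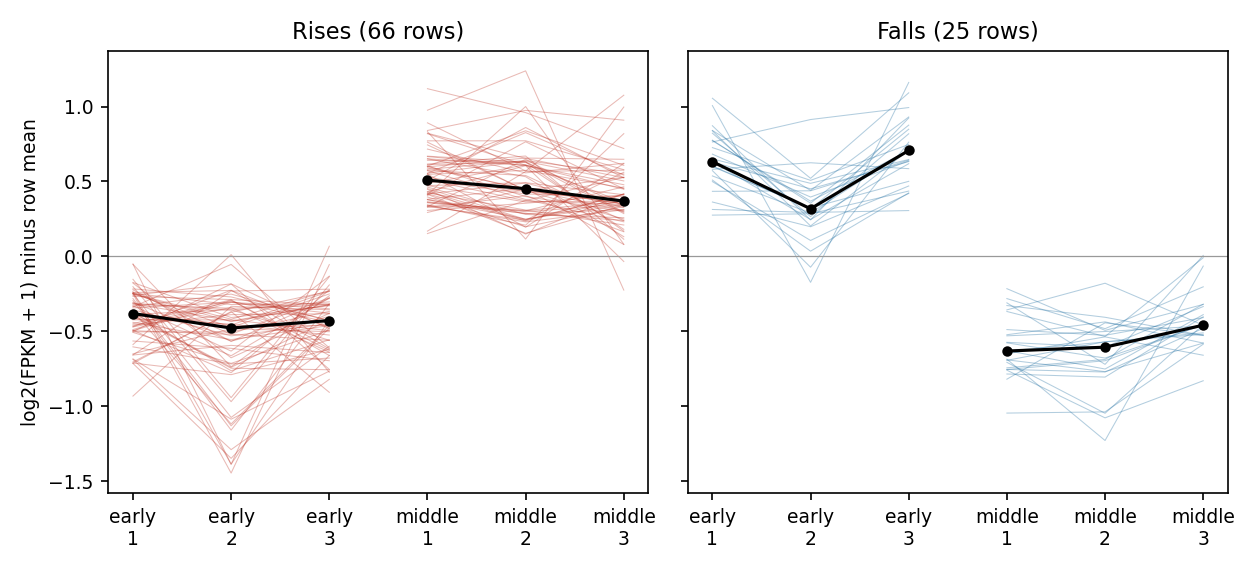
Level of each rise (left) and each fall (right) in the 6 libraries, as log2(FPKM + 1) minus the mean of the row. Each thin line is a row, broken between the stages, and the black points are medians over rows; the lines only join values of a row, since replicates have no order. Early replicate 2 holds the lowest values of several rises and the lowest early median of the falls, and middle replicate 3 lies nearest to 0 in both panels among the middle libraries.

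Together the 66 rises held 6.53%, 5.65% and 6.28% of the FPKM sum in the early libraries and 11.4%, 11.3% and 10.8% in the middle libraries. These are means of 6.15 ± 0.451% and 11.2 ± 0.305% (SD, n = 3). The 25 falls held 4.51%, 3.71% and 4.55% in the early and 1.79%, 1.75% and 2.08% in the middle libraries, or 4.26 ± 0.473% and 1.87 ± 0.181% (SD, n = 3). For both lists the libraries of one stage lie clear of those of the other, which the choice of rows fixes. The 209 other rows of the 300 held 19.8 ± 0.501% of the early and 20.3 ± 0.108% of the middle sum (SD, n = 3).

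In FPKM the rises together differed by 49670 between the stage means, middle minus early, and the falls together by -20654. The 3 highest rises made up 26.6% of the first difference and the 2 highest falls 29.7% of the second. The net difference over the 91 members was 29017 FPKM. For comparison, the sum over all rows was 896521 ± 8777 FPKM (early) and 939187 ± 6723 FPKM (middle; SD, n = 3), a difference of 42666 FPKM. As shares of recovered reads, which give long rows more weight, the rises held 3.92 ± 0.465% (early) and 7.74 ± 0.238% (middle). The falls held 3.56 ± 0.415% and 1.73 ± 0.180% of the reads (SD, n = 3).

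**Figure D4:**
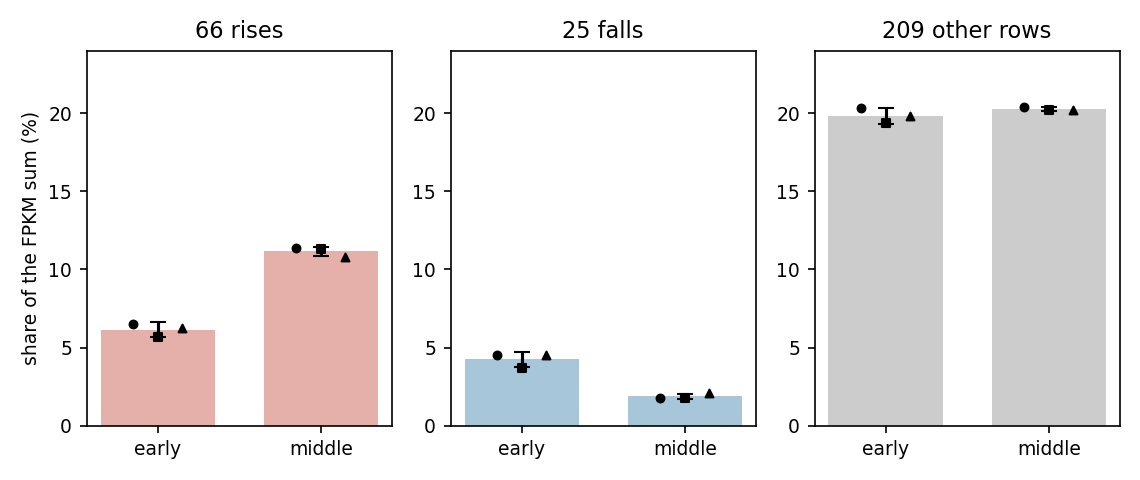
Share of the FPKM sum held by the 66 rises, the 25 falls and the 209 other rows of the 300 highest, in percent on axes from 0. Bars are means of 3 libraries with the SD, and points are libraries, with circles, squares and triangles for replicates 1 to 3; the rises go from 6.15% to 11.2%, the falls from 4.26% to 1.87%, and the other rows from 19.8% to 20.3%.

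All 6 libraries took part in choosing the 91 members, so no library here can test that list. The rule was therefore also applied 6 times to 5 libraries each, and the rows it then chose, which are not the same lists as the members, were read in the library left out. Rises chosen this way numbered 57 to 81 and falls 22 to 30. Of 427 such readings of rises, 413 (96.7%) lay beyond all 3 libraries of the other stage, on the side that the other libraries of its own stage had shown. Of 162 readings of falls, 156 (96.3%) did. The same row is read up to once per library, so these readings are not independent. The 3 libraries of the other stage had taken part in the choice, and only the value in the library left out was new. A high share thus follows in part from the choice, and it does not test the list of 91 members.

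The same readings were taken from wider sets of rows. Among the other rows of the 300 whose stages did not overlap in the 5 libraries, 93.0% of 503 readings with the higher and 89.7% of 292 readings with the lower values in middle J2 lay beyond the other stage. Among all tested rows without overlap in the 5 libraries the shares were 80.7% of 18035 and 81.6% of 19288 readings. By the rule the rows of the first set lie outside the ratio limits, many of them under 1.5-fold. The last set is not outside the ratio limits and includes the chosen rows, and many of its rows have smaller differences or fewer reads. The order was not the same in every library. With early replicate 3 left out, the share was 96.1% for the rises and 98.8% for the other rows of the 300 with the higher values in middle J2, and 92.6% for the falls and 94.7% for those with the lower values. With early replicate 2 left out, the share was 93.4% for the rises and 95.5% for the other rows with the higher values. For the falls it was then 100%, and 71.7% for the other rows with the lower values. With early replicate 1 left out, the falls and the other rows with the lower values both stood at 100%. The shares are set side by side with no test.

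The position of the library left out was measured on log2(FPKM + 1), with 0 at the mean of the other stage and 1 at the mean of the remaining libraries of its own stage. For the rises the median position was 0.92, 0.99 and 0.94 for early replicates 1 to 3 and 1.10, 0.96 and 0.88 for middle replicates 1 to 3. For the falls it was 1.09, 0.72 and 1.18 for the early and 1.05, 1.08 and 0.85 for the middle replicates. Early replicate 2 was thus nearer to the middle stage than its partners in the falls, at 0.72, but not in the rises, at 0.99. The other rows of the 300 without overlap had the same contrast, at 0.67 (lower in middle J2) and 1.10 (higher). Over all tested rows without overlap the positions of early replicate 2 were 0.95 (lower) and 0.78 (higher). Middle replicate 3 fell short in both lists, at 0.88 and 0.85. Among the other rows of the 300 without overlap it also did, at 0.86 (higher in middle J2) and 0.92 (lower). Over all tested rows without overlap it stood at 0.79 and 0.75, so the shortfall was not particular to the chosen rows. Nor was it particular to this library outside them. Middle replicate 2 stood at 0.87 (higher) and 0.99 (lower) among the other rows, and at 0.76 and 0.83 over all tested rows. Choosing rows by their separation in the other libraries can by itself bring a position under 1. In early replicate 2, 71 of 76 rises lay below all middle libraries, and all 25 falls lay above them.

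**Figure D5:**
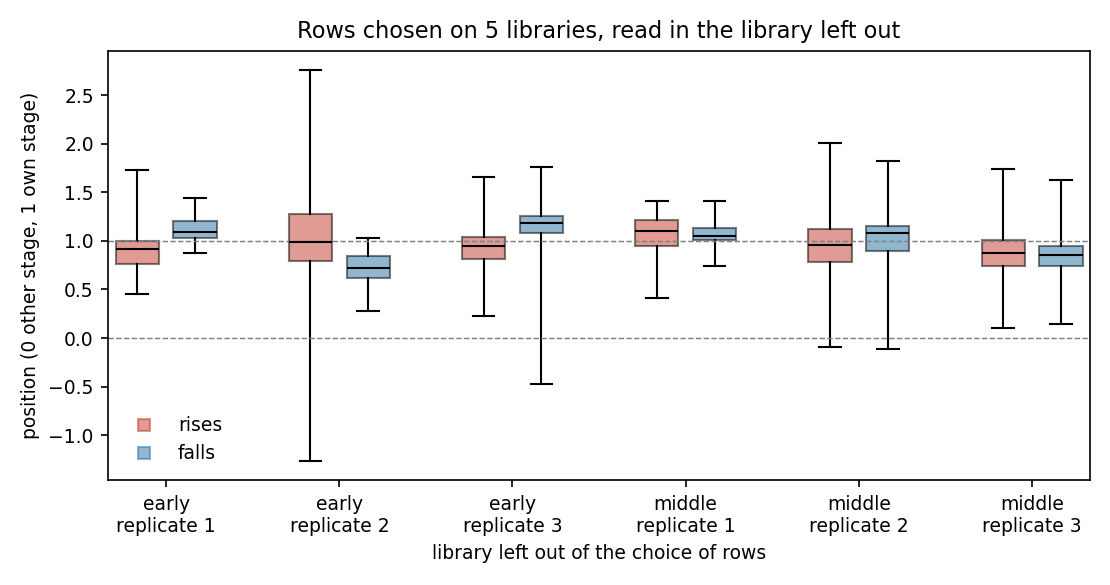
Position of each library among rows chosen by the rule on the other 5 libraries, for rises (red) and falls (blue), with 0 at the mean of the other stage and 1 at that of the remaining libraries of its own stage on the log2(FPKM + 1) scale. Boxes span the quartiles over rows with the median as a line, and whiskers the full range; the medians lie between 0.72 and 1.18, and the falls in early replicate 2 are the lowest box.

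The median gene model was shorter among the rises than among the falls, a comparison of rows with no test. The median recovered length was 531.5 bases for the rises, with quartiles of 363.5 and 789.8 bases, and 777 bases for the falls, with quartiles of 421 and 1388 bases. It was 628 bases for the 209 other rows of the 300 and 939 bases over all tested rows. Models under 500 bases made up 30 of the 66 rises (45.5%), 8 of the 25 falls (32.0%) and 27.8% of the other rows of the 300. Models over 1000 bases made up 9 rises (13.6%), 9 falls (36.0%) and 21.1% of the other rows.

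The longest rise had 1763 bases and the longest fall 3313 bases. Across the 300 rows Spearman's rho between length and the log2 ratio of the stage means was -0.13, a weak relation given as a description, since rows are not independent and share their libraries. Whether preparation or the animals gave this lean to short models was not tested.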

How the data were processed

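Per the labels, total RNA of 3 early and 3 middle J2 samples was sequenced. The authors deposited FPKM values for each library, and the submitters' processing notes name CASAVA and TopHat2. Their versions, the counter, build, annotation, strand setting and handling of multi-mapping were not given in the sources used here. Another 16 unnamed columns could be tied to no sample and were left aside. The members and the lists were chosen with earlier results of these data known. The rows named by ID are the 2 rises and the 2 falls with the highest mean FPKM. The gene lists by product drawn up for this comparison could not be applied, since the table gives IDs alone.

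Whole reads, denominators and model lengths were recovered from the FPKM steps, with all 17197 rows above 0 coming out whole within 0.001. The lengths were searched for so that counts came out whole, so this closeness tests nothing, and counts with a common factor may come out too low together with the length. Denominators of the 6 libraries were 5305983 to 7436406 reads. Rows whose mean reached 1 FPKM were tested by limma 3.58.1 in R 4.3.3 on log2(FPKM + 1), without a replicate block, two-sided, with Benjamini-Hochberg adjustment over 13142 rows and a threshold of 0.05. Log2 differences are middle minus early. The recovery and the limma step were run on simulated data built from the recovered lengths, counts and denominators, with an even spread between libraries. That run checks the code, and it tests neither the recovered values nor the uneven spread seen here. Alternatives were other pseudocounts, filters, scalings, no trend, the replicate block, limma voom on the recovered reads, other limits of the rule and leaving out each library. Reads that near-identical copies share were counted in a way not known here. Tables come from Python 3.11.15 with pandas 2.3.3.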

Additional observations from a re-analysis of the deposited data

How the results depend on the processing

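No member changed direction under any of the 15 alternative fits, which the choice of rows largely fixes. The fits passed 58 to 65 rises and 22 to 25 falls without leaving out a library, and 52 to 60 rises and 19 to 24 falls with a library left out. Over all rows these last fits gave 1362 to 2263 calls, each with fewer libraries by construction, and the others 1977 to 2542. The rule gave 57 to 81 rises and 22 to 30 falls with a library left out. Restricted to the 200 highest rows it gave 45 rises and 14 falls, with fewer rows by construction. The middle-minus-early difference in the share of the FPKM sum was 5.01 percentage points for the rises (4.76 to 5.20 with a library left out) and -2.39 for the falls (-2.66 to -2.24). As shares of recovered reads the differences were 3.82 and -1.83 percentage points, by the weight given to length. The median position of a left-out library was 0.95 on either scale for the rises, and 1.06 on log2 and 1.05 on linear FPKM for the falls. Of the named rows, Minc02311 passed the threshold under 5 of 15 alternatives, and the other 3 passed under all 15.

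A fit with a replicate block passed 2187 rows, 1120 of them higher and 1067 lower, among them 65 rises and 25 falls. Deviations of same-numbered libraries from their stage means correlated at 0.005, 0.089 and 0.120, and those of other pairs at -0.153 to 0.077. Early replicate 1 correlated best with middle replicate 3, not 1, so the numbers are not shown to pair the libraries.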

Other observations

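Among the 300 highest rows, 224 pairs had levels within 15% of each other in every library, 13 of them within the rises and 2 within the falls. A single one of these pairs also had recovered lengths of equal size, and both its rows were rises. Both models had 295 bases. The first, at rank 126, had 517, 592 and 469 FPKM in the early and 1110, 1122 and 816 FPKM in the middle libraries. The second, at rank 133, had 515, 575 and 444 FPKM in the early and 1079, 1120 and 762 FPKM in the middle libraries. The largest ratio between them in any library was 1.07. Whether these are near-identical copies that share reads was not tested, and without sequences they count as uncertain.

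The members were also placed by ID number. Of the rises, 2 had another rise at the next number and 6 had one within 10 numbers, and no fall had another fall within 10 numbers. The counts to be had from as many rows picked at random were not computed, so nothing is read from these. The rise whose number follows that of Minc03866 by 2 stood at rank 49, with a model of 1553 bases. It had 1024, 568 and 893 FPKM in the early and 1769, 2260 and 1791 FPKM in the middle libraries, with early replicate 2 the lowest and middle replicate 2 the highest, as in Minc03866. Rows at the next ID numbers that were tested and were not members had a median log2 difference of 0.03 beside the rises (94 rows) and -0.12 beside the falls (41 rows), against -0.007 over all tested rows. Of the 94 rows, 12 passed in the direction of the rises and 9 in that of the falls (12.8% and 9.57%), and of the 41 rows 2 and 9 (4.88% and 22.0%), against 9.32% and 9.10% of all tested rows (limma, Benjamini-Hochberg adjusted p under 0.05).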
